A study of Drosophila melanogaster with 2 samples.

Results

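The genes described are the cytoplasmic ribosomal protein genes of Drosophila melanogaster, taken as every protein-coding gene of the Ensembl annotation whose name begins with RpL or RpS. There were 92 such genes among 13986 protein-coding genes, 54 named for the large ribosomal subunit (RpL) and 38 for the small one (RpS). The name rule also takes in copies and "-like" genes, some of which are not known to be parts of the ribosome. Binding of CG10366, assayed by the study as a transcription factor, was mapped by chromatin immunoprecipitation and sequencing (ChIP-seq) in whole embryos aged 0 to 24 h. The flies of both libraries carried a transgene for CG10366 fused to eGFP, the antibody was directed against GFP, and chromatin had been sonicated to 200 to 800 bp. The labels number the 2 libraries as biological replicates 1 and 2, without saying whether the embryo collections were separate. They form 1 group, so no groups of samples are compared and no p-values are given. The labels do not give the promoter that drives the transgene, embryos of all stages and cell types were pooled, and control libraries were not analysed here, so whether the same promoters would give peaks without the tagged protein was not tested.

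Ribosomal proteins fold onto ribosomal RNA to form the large subunit, which joins amino acids, and the small subunit, which reads the messenger RNA. Their genes are transcribed in nearly all cells in matched amounts, and in flies the loss of 1 copy of many of them gives the Minute phenotype of slow development and thin bristles. Fly ribosomal protein promoters are known for a pyrimidine-rich start called the TCT initiator, which takes the place of the usual initiator, and for binding by the zinc finger protein M1BP and by the DNA replication-related element factor DREF.

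The promoters of 8 genes with a peak are shown first, because they differ in which of these elements they hold. Each runs from 110 bases before the annotated start of the gene through the first 10 bases of its first exon, 5′ to 3′ on the strand of the gene, in the dm6 assembly (RefSeq copy, 1-based coordinates). Capitals mark ATCGAT, the core of the DNA replication-related element (DRE), and the CTTT of the TCT initiator, where a script found it with a pyrimidine on either side and its C within 5 bp of the start. RpS27 is the strongest peak among the ribosomal protein genes. It holds neither element as marked here, but the initiator was found at another of its annotated starts, and it is counted below as holding it. RpL34b and RpL34a are copies of 1 gene that hold opposite elements in this window. RpL32 and RpS25 hold both elements, RpS28b and RpS12 hold the DRE core at 2 places, and RpL8 holds the initiator at 2 adjoining places and no DRE core.
RpS27, chr3R:25247505-25247624, minus strand: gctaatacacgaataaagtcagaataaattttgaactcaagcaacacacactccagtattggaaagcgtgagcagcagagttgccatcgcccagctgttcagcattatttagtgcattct
RpL34b, chr3R:9401217-9401336, minus strand: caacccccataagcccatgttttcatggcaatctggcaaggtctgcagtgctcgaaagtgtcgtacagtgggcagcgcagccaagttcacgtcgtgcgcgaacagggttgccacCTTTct
RpL34a, chr3R:26059258-26059377, minus strand: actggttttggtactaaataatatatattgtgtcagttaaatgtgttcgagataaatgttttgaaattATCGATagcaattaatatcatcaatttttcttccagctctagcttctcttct
RpL32, chr3R:30046152-30046271, minus strand: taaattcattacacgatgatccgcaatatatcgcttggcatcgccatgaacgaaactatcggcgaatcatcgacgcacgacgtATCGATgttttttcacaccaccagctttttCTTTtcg
RpS28b, chrX:9554513-9554632, plus strand: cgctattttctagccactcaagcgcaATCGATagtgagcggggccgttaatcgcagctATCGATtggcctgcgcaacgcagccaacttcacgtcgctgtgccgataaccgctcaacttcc
RpS12, chr3L:13023242-13023361, plus strand: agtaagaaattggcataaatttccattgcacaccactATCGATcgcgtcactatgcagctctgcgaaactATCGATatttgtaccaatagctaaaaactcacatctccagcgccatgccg
RpS25, chr3R:11216278-11216397, minus strand: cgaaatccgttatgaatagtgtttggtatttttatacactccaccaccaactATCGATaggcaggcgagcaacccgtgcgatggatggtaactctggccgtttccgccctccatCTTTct
RpL8, chr3L:2587346-2587465, plus strand: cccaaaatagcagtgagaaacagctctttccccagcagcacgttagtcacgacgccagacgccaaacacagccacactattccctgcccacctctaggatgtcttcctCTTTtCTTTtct

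Most ribosomal protein genes had a CG10366 peak at their promoter. In the series-wide list, which rests on both libraries, 65 of the 92 genes had a peak summit within 500 bp of a start site (70.7%), against 19.4% of all protein-coding genes. Such genes are called marked below. Peaks in this list had passed the authors' threshold on the irreproducible discovery rate (IDR), which scores how well the ranks of peaks repeat between peak sets. Which sets were compared for each list is not known here, and passing does not by itself show that a peak was found in both libraries. A weaker ranked candidate, passing or not, was present at 75 of the 92 genes, and 86.7% of those 75 were marked, against 45.3% of the 5995 protein-coding genes with a candidate. The 17 other genes had no candidate in the series-wide ranked list. Large-subunit genes were marked in 41 of 54 cases (75.9%) and small-subunit genes in 24 of 38 (63.2%).

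The call for each gene was looked at in each library's own list. Replicate 1 marked 60 of the 92 genes (65.2%; 18.4% of all protein-coding genes) and replicate 2 marked 54 (58.7%; 14.8%). Both replicate lists marked 47 genes (51.1%, against 13.0% of all protein-coding genes), 13 were marked in replicate 1 alone, 7 in replicate 2 alone and 25 in neither. A second list made from both libraries, which the authors call conservative, marked 61 (66.3%; 19.2%). Of the 65 genes marked series-wide, 47 were also marked in both replicates (72.3%), and of all 2715 marked protein-coding genes 1813 were (66.8%). RpS26 (signal 116) and RpL10 (107), a protein that joins the large subunit late, passed in the series-wide list and in neither replicate list. In replicate 1 they had no candidate at all, passing or not, within 500 bp of their starts. In replicate 2 their candidates (38.3 at RpS26 and 33.4 at RpL10) did not pass. No list gives a number of reads, so the depth behind it is unknown, and a gene missing from a list is one without a passing peak there, not one shown to be unbound.

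Peaks at the marked genes ranged from rank 197 to rank 4420 of the 5153 in the list. The authors' signal per peak, used here only within a list, had a median of 206 over the 65 genes, with quartiles of 128 and 259.9 and a range of 85.6 to 685. Over the 2650 other marked protein-coding genes the median was 172, and their strongest peak reached 3230. Of the 65 genes, 8 were at a peak ranked in the top 500 of the 5153 peaks (12.3%, against 15.8% of other marked genes), 15 in the top 1000 (23.1% against 28.4%) and 39 in the top 2000 (60% against 49.5%). These shares rest on 8, 15 and 39 ribosomal protein genes, and whether they differ from those of other marked genes was not tested. Medians were close for the 41 large-subunit genes (199.9) and the 24 small-subunit genes (217).

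**Figure D1:**
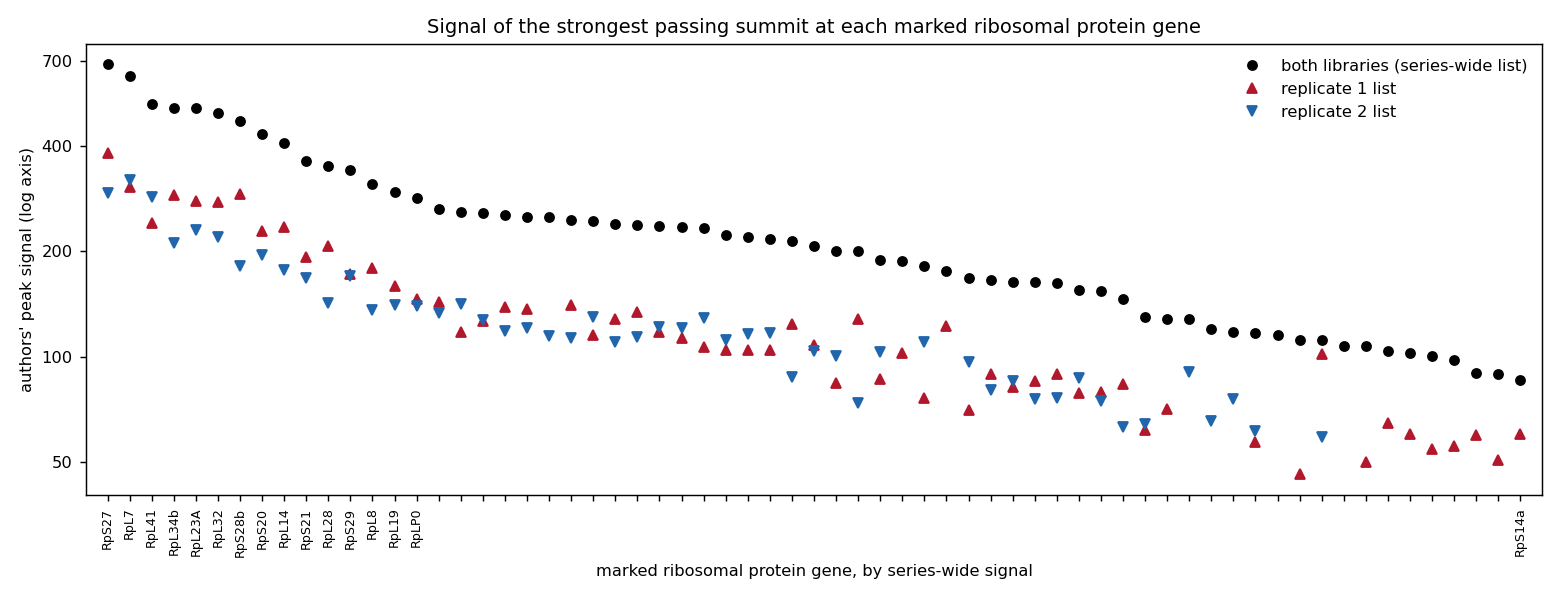
Authors' peak signal (log axis) at the 65 marked ribosomal protein genes, ordered by the series-wide list (the 15 strongest and the weakest are named), with the value in each replicate's own list where the gene passed there. RpS27 stands highest at 685 and RpS14a lowest at 85.6, and genes at the low end often lack a point for 1 or both replicates.

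Among large-subunit genes, RpL7 had the strongest peak, with a signal of 634 in the series-wide list, 306 in replicate 1 and 319 in replicate 2. RpL41, which encodes one of the shortest known proteins, had 527 series-wide, 240.5 in replicate 1 and 286 in replicate 2. RpL34b had 515, with 289.8 and 211 in replicates 1 and 2. These 3 genes passed in both replicate lists, whose scales are not comparable with each other. RpL23A had 514, 279 and 230.3 in the same order of lists. RpL32, whose transcript is widely used as a reference in fly expression assays, had 498, 276 and 220.2. RpL14 had 409, 235 and 176. These 3 also passed in both. RpL28 (351), RpL8 (311), RpL19 (295), RpL22 (264), RpL24 (259.9) and RpL31 (251) were also among the stronger peaks of the series-wide list, and all of these passed in both replicate lists. RpLP0, the base of the stalk that recruits elongation factors, had 284 series-wide, 146 in replicate 1 and 139 in replicate 2, whereas its stalk partners RpLP1 and RpLP2 were not marked.

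Among small-subunit genes, RpS27 had 685 in the series-wide list, 382 in replicate 1 and 293 in replicate 2. RpS28b had 472, 292 and 182 in the same order, and RpS20 had 432, 229 and 195. All 3 passed in both replicate lists. RpS21 (364), RpS29 (341) and RpS12 (257) came next. RpS12, whose protein in flies takes part in the elimination of Minute cells by their neighbours, had 126 in replicate 1 and 127 in replicate 2. RpS6, the subunit protein phosphorylated when TOR signalling is active, had a weaker peak of 111 series-wide at -46 bp and 58.9 in replicate 2 at 14 bp. Its value of 102 in replicate 1 belonged to a summit at -500 bp, at the edge of the window. RpS14a (85.6), RpL35 (89.0) and RpL18 (89.6) were the weakest of the 65, and none of these 3 passed in replicate 2. RpS16 had 251 in the series-wide list and 114 in replicate 2, yet no candidate, passing or not, lay within 500 bp of its starts in replicate 1. RpL29 likewise had no candidate in replicate 1, with 118 series-wide and 75.5 in replicate 2. The same absence from replicate 1 held for RpS26 and RpL10, named above.

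Over the 47 genes passing in both replicate lists, the replicate signals ranked alike (Spearman's rho = 0.876), as they did over all 1819 such protein-coding genes (0.858). These are descriptions across genes that share the same pair of libraries. The position of the strongest summit relative to the start differed by at most 50 bp between replicates at 43 of the 47 genes, with a median difference of 17 bp. The largest differences were at RpL10Ab, with a position of -486 bp in replicate 1 and -27 bp in replicate 2 relative to the start, and RpS6, with -500 and 14 bp.

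Of the 27 unmarked genes, 10 had a ranked candidate that did not pass. RpL13A stood apart from the rest, with a series-wide candidate signal of 276 at -58 bp, 155 in the ranked list of replicate 1 and 119 in that of replicate 2, and the highest −log10 IDR that the series-wide list gives (5). It was absent from the thresholded lists although its IDR met the limit, as were 148 peaks of the series-wide ranked list, and the reason is not given in the sources used here. RpLP2 had 113 with a −log10 IDR of 0.226, under the limit of 2, and it passed in the conservative list. RpS24 had 75.7 at 1.85 and passed in replicate 2 (53.7). RpLP1 had 69.7 and RpS2 had 63.3. RpL37-2 (54.8), RpL24-like (52.5), RpS10a (42.9) and RpL6 (41.4) had low candidates.

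The 17 genes with no series-wide candidate were RpL10Aa, RpL15, RpL21, RpL22-like, RpL40, RpL7-like, RpL9, RpS13, RpS15Ab, RpS19b, RpS27A, RpS28-like, RpS28a, RpS3, RpS3A, RpS5b and RpS9. Among them RpL40 and RpS27A encode ribosomal proteins fused to ubiquitin, and RpS3 lies at the entry of the messenger RNA channel. In all, 3 of these 17 passed in a single replicate list. RpS27A had a signal of 141 in replicate 2, RpS3A had 85.6 in replicate 2 and RpL15 had 59.2 in replicate 1. With RpS24, and with RpLP2 from the conservative list, they brought the genes marked in at least 1 of the 4 thresholded lists to 70 of 92 (76.1%, against 22.5% of all protein-coding genes).

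Copied genes were marked mostly at 1 copy. By a split made by hand from the gene names, 14 members were second copies or -like genes, RpL37-1 and not RpL37-2 being counted among them, and 4 of these were marked (28.6%), against 61 of the other 78 members (78.2%) and 19.4% of all protein-coding genes. The 4 were RpL34a (165), RpL37-1 (154), RpS14b (163) and RpLP0-like (128), which is related to a ribosome assembly factor. In the series-wide lists, signal was 472 at RpS28b with no candidate at RpS28a, 245 at RpS15Aa with none at RpS15Ab, and 206 at RpS19a with none at RpS19b. In the same lists this held for RpS5a (163) over RpS5b, RpL10Ab (155) over RpL10Aa, RpL22 over RpL22-like and RpL7 over RpL7-like. RpS10b had 214 where RpS10a had a failing candidate of 42.9. RpS5b and RpS19b are known for expression in the germ line. Both copies were marked for RpL34 and RpS14, and RpLP0 was marked as well as RpLP0-like. RpS14a and RpS14b lie in tandem on X, and their proteins are near-identical, so reads that match both copies could have been lost or split. How such reads were placed is not given in the sources used here.

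Summits at ribosomal protein genes lay close to the start site. The median position of the strongest summit was -36 bp (negative is upstream), with quartiles of -53 and -15 bp, against -131.5 bp over the 2650 other marked genes. The summit was within 50 bp of the start at 43 of the 65 genes (66.2%), and at 334 of the other marked genes (12.6%). It was upstream at 54 of the 65 (83.1%; 88.6% of the others). Examples are RpS27 at -5 bp, RpS29 at -3 bp, RpS21 at -6 bp and RpL7 at 22 bp. RpL41 (-115 bp), RpL32 (-103 bp) and RpS20 (-177 bp) were strong peaks farther upstream. RpL35 (-464 bp), RpL18 (-354 bp) and RpL23 (-244 bp) had summits more than 200 bp upstream, and each of these 3 was also within 500 bp of the start of another gene. More than 50 bp downstream lay RpS15 (108 bp) and RpL26 (59 bp).

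**Figure D2:**
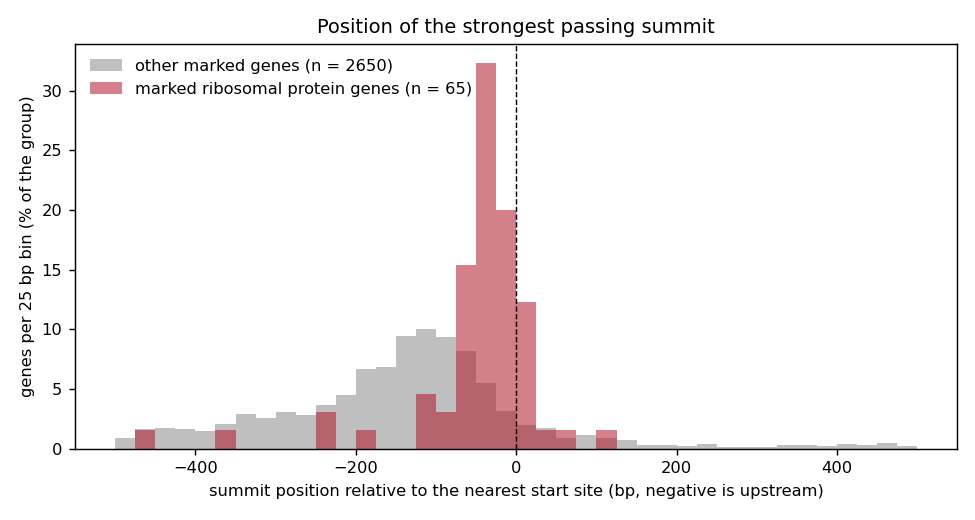
Position of the strongest passing summit relative to the nearest start site of the gene (bp, negative is upstream), as the percent of genes in each bin, for 65 ribosomal protein genes and 2650 other marked genes. The ribosomal protein genes pile up at the start, with a median of -36 bp, and the other genes peak farther upstream, with a median of -131.5 bp.

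Many ribosomal protein genes share their promoter region with a neighbour, and a summit between them cannot be assigned to 1 gene. At 30 of the 65 marked genes (46.2%) the strongest summit was also within 500 bp of the start of another protein-coding gene, against 58.1% of other marked genes. The neighbours included Nup37, a nuclear pore gene, at RpS27, Ripalpha at RpL7, CG8132 at RpL34b, CG7943 at RpL32, Nelf-E, a subunit of the negative elongation factor, at RpL14, eIF1, a translation initiation factor, at RpL28, and Dref, which encodes DREF, at RpL13 (-23 bp). At the 35 genes with no other start in reach, 26 summits lay within 50 bp of the start (74.3%, against 12% of 1110 other marked genes of that kind). At the 30 shared summits 17 did (56.7% against 13.1%). Signal medians were 236.5 at the 30 shared and 189.5 at the 35 unshared summits (177 and 167.5 among other genes).

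A divergent neighbour, that is a protein-coding gene on the other strand starting within 1000 bp upstream, was present at 54 of the 92 genes. Of these 54, 44 were marked (81.5%, against 34.0% of all 4654 divergent genes), and of the 38 without one, 21 were (55.3%, against 12.2%). Small nucleolar RNAs guide the chemical modification of ribosomal RNA. Members that host them were marked in 23 of 28 cases (82.1%), and the other members in 42 of 64 (65.6%). Of all 84 host genes 54.8% were marked, a share that includes these 28 members. RpS5a, with 14 such RNAs, had a signal of 163.

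By chromosome arm, all 14 genes on X were marked (19.4% of all protein-coding genes there), and 12 of 14 on 3L (85.7%; 20.5%). On 2R 15 of 21 were marked (71.4%; 18.1%), on 3R 14 of 23 (60.9%; 20.3%) and on 2L 10 of 19 (52.6%; 19.3%). The only member on chromosome 4, RpS3A, was not (5% of the 80 genes there). The unmarked second copies and -like genes all lie on arms other than X, and arm was not separated from copy status. The 14 X genes had the lowest median signal of the arms (164) and the 12 marked genes on 3L the highest (247).

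The DNA under the ribosomal protein summits was richer in G and C than under other promoter summits. GC content over 50 bp to either side was 46.1% ± 8.53 (SD over 65 genes), against 33.9% ± 9.84 (SD over 2650 other marked genes). Position moved with this value. Where the summit was within 50 bp of the start, GC content was 48.2% ± 7.03 at 43 ribosomal protein genes and 41.7% ± 9.72 at 334 others, and where it was more than 50 bp upstream it was 42.6% ± 9.64 at 20 and 32.5% ± 9.20 at 2116. The 100 bp upstream of all 92 genes held 42.5% G and C, close to the 41.2% of all protein-coding genes.

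Signal and GC content also ranked in opposite ways in the 2 sets. Spearman's rho was 0.500 over the 65 ribosomal protein genes and -0.305 over the 2650 others, given as a description of peaks from the same libraries. Among peaks ranked in the top 1000, ribosomal protein summits had 49.6% G and C (15 genes) and the others 30.3% (752). Among ranks beyond 2500 the values were 41.3% (18) and 36.9% (1039). RpL7 had 62.4%, RpS21 59.4% and RpS28b 57.4%, whereas RpS20, also a strong peak, had 24.8%. Whether base composition affected recovery or mapping of these fragments was not tested.

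**Figure D3:**
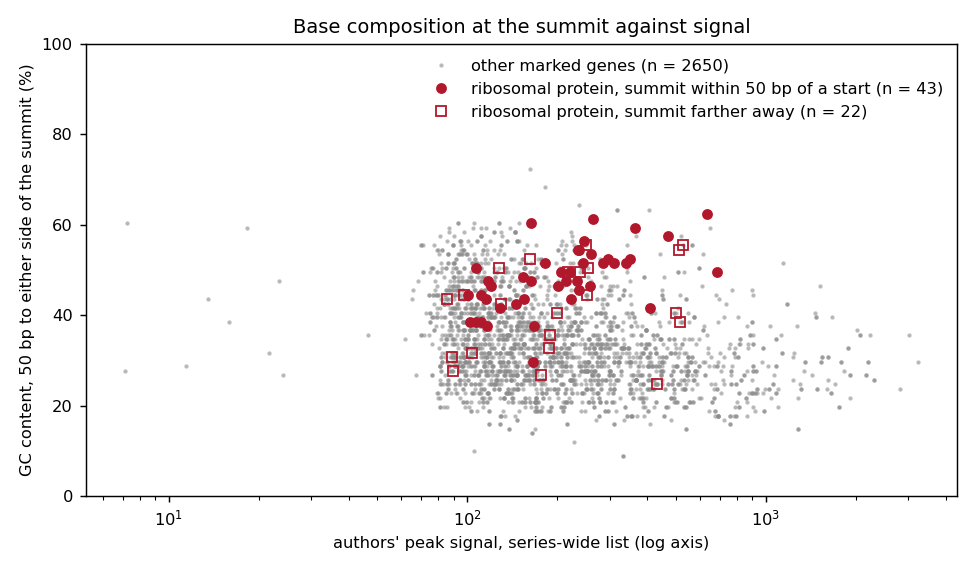
GC content within 50 bp of the summit (percent) against the authors' peak signal (log axis) for 65 ribosomal protein genes, split by whether the summit is within 50 bp of a start (43) or farther away (22), and for 2650 other marked genes. At high signal most ribosomal protein genes lie in the upper part of the cloud, with exceptions such as RpS20 (signal 432, GC content 24.8%). In the top 1000 ranks their GC content averages 49.6%, against 30.3% for the others, some of which reach higher values than any ribosomal protein gene.

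Promoters were searched for known core elements from 250 bp upstream to 50 bp downstream of the gene start, on both strands unless stated. The TCT initiator, read on the gene's own strand at any annotated start, was found at 55 of the 92 genes (59.8%) and at 2.13% of all protein-coding genes. It was present at 63.1% of marked and 51.9% of unmarked ribosomal protein genes, and at 2.30% of other marked genes. A TATA box (TATAAA, own strand, within 60 bp upstream) was found at 1 of the 92 genes, against 11.8% of all. Of the 14 second copies and -like genes 3 held the initiator (21.4%), against 52 of the other 78 (66.7%).

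The DRE core ATCGAT was in 41.3% of the 92 promoters and in 23.3% of all protein-coding promoters. The full element TATCGATA, which contains the core, was in 30.4% and 9.36%. The core was in 44.6% of marked and 33.3% of unmarked ribosomal protein promoters, and in 28.4% of other marked promoters. CGATA, the box bound by the insulator protein BEAF-32, which overlaps the full DRE, was in 80.0% of marked, 55.6% of unmarked and 53.5% of other marked promoters (47.4% of all). GGTCACAC, the core of the Motif 1 element bound by M1BP, was in 15.2% of the 92 and 7.70% of all. The Motif 7 core CANCNCTA was in 28.3% and 15.6%. The Motif 5 E-box CAGCTG was rarer in the 92 (9.78%) than in all promoters (17.7%), as was GAGAG, the element of the GAGA factor (17.4% and 29.7%). A match is a description of the letters and not a binding site.

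**Figure D4:**
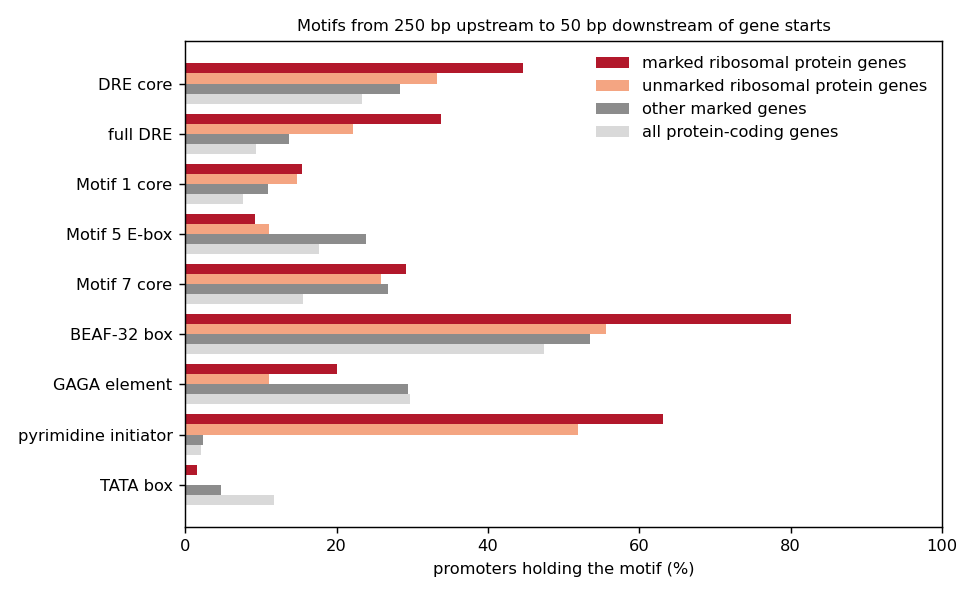
Percent of promoters, 250 bp upstream to 50 bp downstream of the gene start, that hold each named element, for 65 marked and 27 unmarked ribosomal protein genes, 2650 other marked genes and 13945 protein-coding genes on the main arms. The pyrimidine (TCT) initiator and the TATA box were searched at or just upstream of start sites only, and the initiator differs most between ribosomal protein genes (63.1% of marked, 51.9% of unmarked) and all genes (2.13%).

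At several marked genes the DRE core lay at the summit itself. Its centre was within 10 bp of the summit at 8 of the 65 genes (12.3%), against 1.77% of other marked genes, and within 50 bp at 24 (36.9% against 8.26%). The 8 were RpS25 (1.5 bp), RpS12 (3.5 bp), RpL34a (3.5 bp), RpL37-1 (4.5 bp), RpL19 (5.5 bp), RpS6 (5.5 bp), RpS7 (7.5 bp) and RpS28b (9.5 bp). In the promoters printed above, the summit of RpS25 is at -54 bp and that of RpS12 at -41 bp, on or beside the capitals of a DRE core. At RpL32 the core lay 78.5 bp from the summit, and RpL34b, RpS27 and RpL8, all strong peaks, had none in the window. The median signal was close with and without the element, 206 at the 29 marked genes holding the core and 209 at the 36 without it. Of genes with the core, 29 of 38 were marked (76.3%), and of those without it, 36 of 54 (66.7%), where the shares over all protein-coding genes were 24.1% and 18.1%. For CGATA the shares were 52 of 67 with (77.6%) and 13 of 25 without (52.0%), against 22.2% and 17.0% over all genes.

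Related gene lists were set beside the ribosomal protein genes. The 73 mitochondrial ribosomal protein genes, which serve the separate ribosome of mitochondria, were marked in 28 cases (38.4%), the 52 translation factors in 14 (26.9%), the 28 genes of ribosome biogenesis and RNA polymerase I in 7 (25%) and the 48 proteasome subunits in 9 (18.8%). The shares of the last 2 lists are near the 19.4% of all protein-coding genes. Mitochondrial ribosomal protein genes were marked by some of the strongest peaks of the series, with 2806 at mRpL41, 2192 at mRpS23 and 2162 at mRpS10. The summit at mRpS23 (-392 bp) lay nearer to CenG1A (-100 bp), and that at mRpS10 was shared with Art3, so neither can be assigned to 1 gene. Over the 28 marked genes of this list the median position was -145.5 bp and 10.7% of summits lay within 50 bp of the start. Their GC content was 32.2% ± 9.71 (SD over 28 genes). Marked translation factors had a median position of -57 bp, 35.7% within 50 bp, and 41.7% ± 8.71 G and C (14 genes). Their strongest were eIF6 (2025), eEF1gamma (451) and eIF3c (358), with eEF1gamma at -31 bp and eIF3c at -20 bp. The strongest proteasome gene was Rpn3 (309, a summit shared with l(2)37Bb). Among biogenesis genes Ns2 (506, a summit shared with POSH) followed eIF6, which is on both lists.

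**Figure D5:**
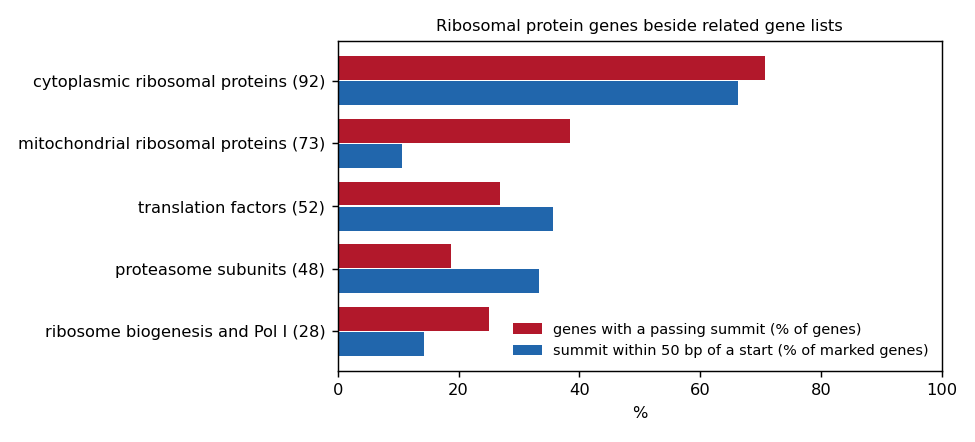
Percent of genes in each list with a passing summit within 500 bp of a start, and percent of those marked genes whose summit is within 50 bp of the start. Of the lists plotted, cytoplasmic ribosomal protein genes have the highest value of both (70.7% and 66.2%), and mitochondrial ribosomal protein genes are second for the first (38.4%) and lowest for the second (10.7%). The factors linked to ribosomal protein genes are not plotted.

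Of 10 factors linked to ribosomal protein genes in flies, 6 were marked (19.4% of all protein-coding genes). Trl, which encodes the GAGA factor, had 476, Irbp18 313, Max, the partner of Myc, 254, BEAF-32 247 at -67 bp, M1BP 206 and Dref, through the summit shared with RpL13, 201. The summits at Irbp18 (with APP-BP1), Max (with CG42374 and Mettl5) and M1BP (with CG8202) were shared as well. Each lay nearer to the neighbour, at -45, -84 and -84 bp in that order, than to the factor, at -181, -136 and -309 bp. Xrp1, Myc, Trf2 and Clamp were not marked. CG10366 itself had a peak of 216 at -64 bp, with 138 in replicate 1 and 79.1 in replicate 2, a summit that also lies within 500 bp of the start of PCNA2.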

How the data were processed

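ChIP-seq peak lists of 2 libraries, 1 group, were used. The signal of each peak is the value the authors deposited, used only within a list, and the −log10 IDR was read from the ranked lists that the authors deposited. Replicate lists come from 1 library each, and the series-wide and conservative lists from both, per the file descriptions. The series-wide and replicate thresholded lists were found to hold ranked peaks with a −log10 IDR of at least 2 (IDR 0.01), but not all of them. In the series-wide case 148 such peaks were missing. RpL13A's candidate, at 5 in replicate 1 and 4.74 in replicate 2, was missing from both replicate lists. How many were missing there in all is not reported here. The conservative list was not checked in this way. The assembly is dm6 per the labels; for the aligner and the peak caller, names and versions were not given in the sources used here.

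A gene was marked where a passing summit lay within 500 bp of the start of any annotated transcript (Ensembl release 115). Its strongest such summit gave signal, position and GC content. Sequence came from the RefSeq copy of the assembly. Shares are descriptions beside the same shares over all protein-coding genes, with no test. Genes named are the 20 strongest, the unmarked, those in neither replicate list, copies, up to 3 of each related list, and CG10366; further genes are named as examples, chosen after their values were seen. Some members are counted but not reported by name here. Members, lists and motifs were chosen with earlier results of these data known. Alternatives changed the list, IDR limit, window, start sites, overlap rule, copies, GC window and motif window. Searches were checked on simulated data. Python 3.11.15, numpy 2.4.6, pandas 2.3.3 and matplotlib 3.10.9 were used.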

Additional observations from a re-analysis of the deposited data

How the results depend on the processing

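Of 63 recalculations, 37 stayed close to the reported values and 26 moved. Only the median position could change sign, and it stayed negative. The number of marked ribosomal protein genes, 65, ranged from 54 to 66, and from a single library 58.7 to 65.2% of members were marked (14.8 to 18.4% of all genes). At an IDR of 0.001 the shares were 59.8% and 15.6%. The share of all genes was 15.4% with a 250 bp window, 22.6% with 1000 bp, 17.3% from gene 5′ ends only and 20.5% by peak overlap. Median member signal was 107.4 to 115.2 from a single library, on those lists' own scales, 213.7 in the conservative list, 233.3 at an IDR of 0.001, 213.7 with 250 bp and 217.5 without copies. Median position was -37 to -32 bp from a single library and -31 bp from gene 5′ ends. Mean GC content was 45.5 to 47.7% from a single library, 42.4% over 100 bp to either side, and, split by position after seeing the data, 48.2% within 50 bp of the start and 42.6% farther upstream. From 100 bp upstream to 50 bp downstream CGATA was in 60.9% and GAGAG in 8.70% of member promoters, and GAGAG in 10.8% of windows of 100 bp to either side of the summit. Shared summits were 22.2% at 250 bp and 69.7% at 1000 bp. No paired analysis was possible because the libraries form 1 group. Unknown depth limits what absence from a list means.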

Other observations

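3 further sequences were picked after reading the members' promoters, so their shares are descriptions of that choice. AACAGCAC was in 7 of the 92 promoters (7.61%) and in 1.48% of all protein-coding promoters, and its 7 holders included RpL24, RpL11, RpS18 and RpL9. GCCACACT was in 12 (13.0% against 2.24%), among them RpL8, RpL24, RpL31 and RpL37-1. GGTATTTT was in 14 (15.2% against 5.27%), among them RpL14, RpS21 and RpS25. Members with GGTATTTT were marked in 9 of 14 cases (64.3%), against 71.8% of the 78 members without it. Over all protein-coding genes the shares were 24.2% with it and 19.2% without. Among members, the other sequences went the other way. With AACAGCAC 6 of 7 members were marked, and without it 59 of 85. With GCCACACT 9 of 12 were marked, and without it 56 of 80.

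Among genes that lie near the centromeres, RpL38 had a signal of 129 series-wide, 61.8 in replicate 1 and 64.0 in replicate 2. RpL5, which binds 5S ribosomal RNA together with RpL11, had 104 series-wide and 64.6 in replicate 1, with no candidate in replicate 2. RpL15 passed in replicate 1 alone. RpL21, toward the same end of 2L as RpL5, had no candidate in the series-wide or replicate ranked lists. These genes are examples, and no distance limit was set to list all members near the centromeres.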
